A study of Mus musculus with 6 samples.

Results

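Hydroxysteroid dehydrogenases are enzymes that oxidise or reduce a hydroxyl group on a steroid and so switch steroid hormones, and some bile acid precursors, between active and inactive forms. Levels of 9 genes of this kind were followed in the jejunum, the stretch of small bowel between duodenum and ileum, of mice with and without the related genes Ifrd1 and Ifrd2. The genes were Hsd3b2, Hsd3b3, Hsd3b7, Hsd11b1, Hsd11b2, Hsd17b2, Hsd17b6, Hsd17b11 and Hsd17b13. Every probe set whose platform annotation named exactly 1 of these genes was taken, which gave 14 of the 45101 probe sets on the array. The family was chosen by the fall of Hsd3b3 between wild type and double knockout on these same arrays, so the values of Hsd3b3 are given as a description with no test. A further 2 probe sets were annotated to several Hsd3b genes at once and are described apart.

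The samples were 6 male C57BL/6 mice, each measured on 1 Affymetrix mouse expression array: wild type mice 1, 3 and 4, and double knockout mice 1, 2 and 3, which lacked both Ifrd1 (TIS7) and Ifrd2 (SKMc15). All were 7 to 10 weeks old, were caged individually and received a synthetic diet high in saturated fat, with 42% of energy from milk fat and 0.2% from cholesterol. The extract protocol puts the collection of the jejunum 3 weeks into this diet, while the growth protocol gives a span of 3 to 8 weeks, so the exact time is not settled. Neither group shows these genes on ordinary chow. The labels do not give the exons removed, and each array is of a different mouse, so variation between animals is part of every SD and SE. The series title asks about intestinal lipid absorption and obesity.

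The 3β-hydroxysteroid dehydrogenases turn pregnenolone and related steroids into progesterone and its relatives, a step that every steroid hormone pathway needs, and the mouse carries a row of near-identical Hsd3b genes side by side. Hsd3b7 stands apart from them, as it acts on hydroxylated cholesterol during bile acid synthesis. The 11β enzymes control glucocorticoids inside cells: Hsd11b1 regenerates active corticosterone and Hsd11b2 inactivates it, which in the gut and kidney protects the mineralocorticoid receptor. Enzymes of the 17β group act on sex steroids, and Hsd17b11 and Hsd17b13 are close relatives that sit on lipid droplets.

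Levels are log2 values, so a difference of 1 is a doubling, and levels under 4 are close to the bottom of the scale and carry little information. A probe set was tested with limma where it lay above 4 on at least 3 of the 6 arrays, which 18013 probe sets did, and a change was called where the adjusted p over all of them was at most 0.05. Array medians lay between 2.87 and 2.90, and n = 3 mice per group limits the precision of every value. The difference between 3′ and 5′ control probe sets, which grows as RNA is degraded, was 0.35, 0.49 and 0.36 in wild type mice 1, 3 and 4 and 0.60, 0.41 and 0.61 in double knockout mice 1, 2 and 3. Whether RNA quality had a part in the differences below was not tested apart from a fit with this measure as a covariate. Both targeted genes were low on every double knockout array: Ifrd1 had levels of 10.00, 9.84 and 9.91 in wild type mice and 6.27, 4.80 and 4.85 in double knockout mice, and Ifrd2 had levels of 8.20, 8.32 and 8.61 against 2.64, 2.74 and 2.59. Enterocyte markers were bright, with a mean level between 13.34 and 13.49 on every array, whereas all 5 stomach markers were under the filter. Of 5 markers of the ileum, Fabp6, Slc10a2 and Fgf15 were under the filter, while Osr2 had mean levels of 7.81 in wild type and 7.31 in double knockout mice and Cubn of 11.9 and 11.1, of which Cubn was called lower (limma adjusted p = 0.0186).

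Of the 14 probe sets, 10 passed the filter and stood for 8 of the 9 genes. The 2 of Hsd3b3 carry the fall that the family was chosen by and are left out of the counts here. Of the other 8, which stood for 7 genes, 1 probe set of Hsd17b11 was called lower, none was called higher and 4 had an unadjusted p under 0.05. Over all probe sets tested, 1.93% were called lower, 2.54% higher and 4.47% in either direction, and 27.1% had an unadjusted p under 0.05. Differences were negative for 6 of the 8, against 46.4% of all probe sets tested, and their median was -0.23 on the log2 scale, beside 0.025 over all probe sets tested. Groups did not overlap for 3 of the 8, those of Hsd17b2 and 2 of Hsd17b11, all lower in the double knockout. Of all probe sets tested, 14.8% had groups apart in that direction, 19.5% in the other and 34.3% in either.

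**Figure D1:**
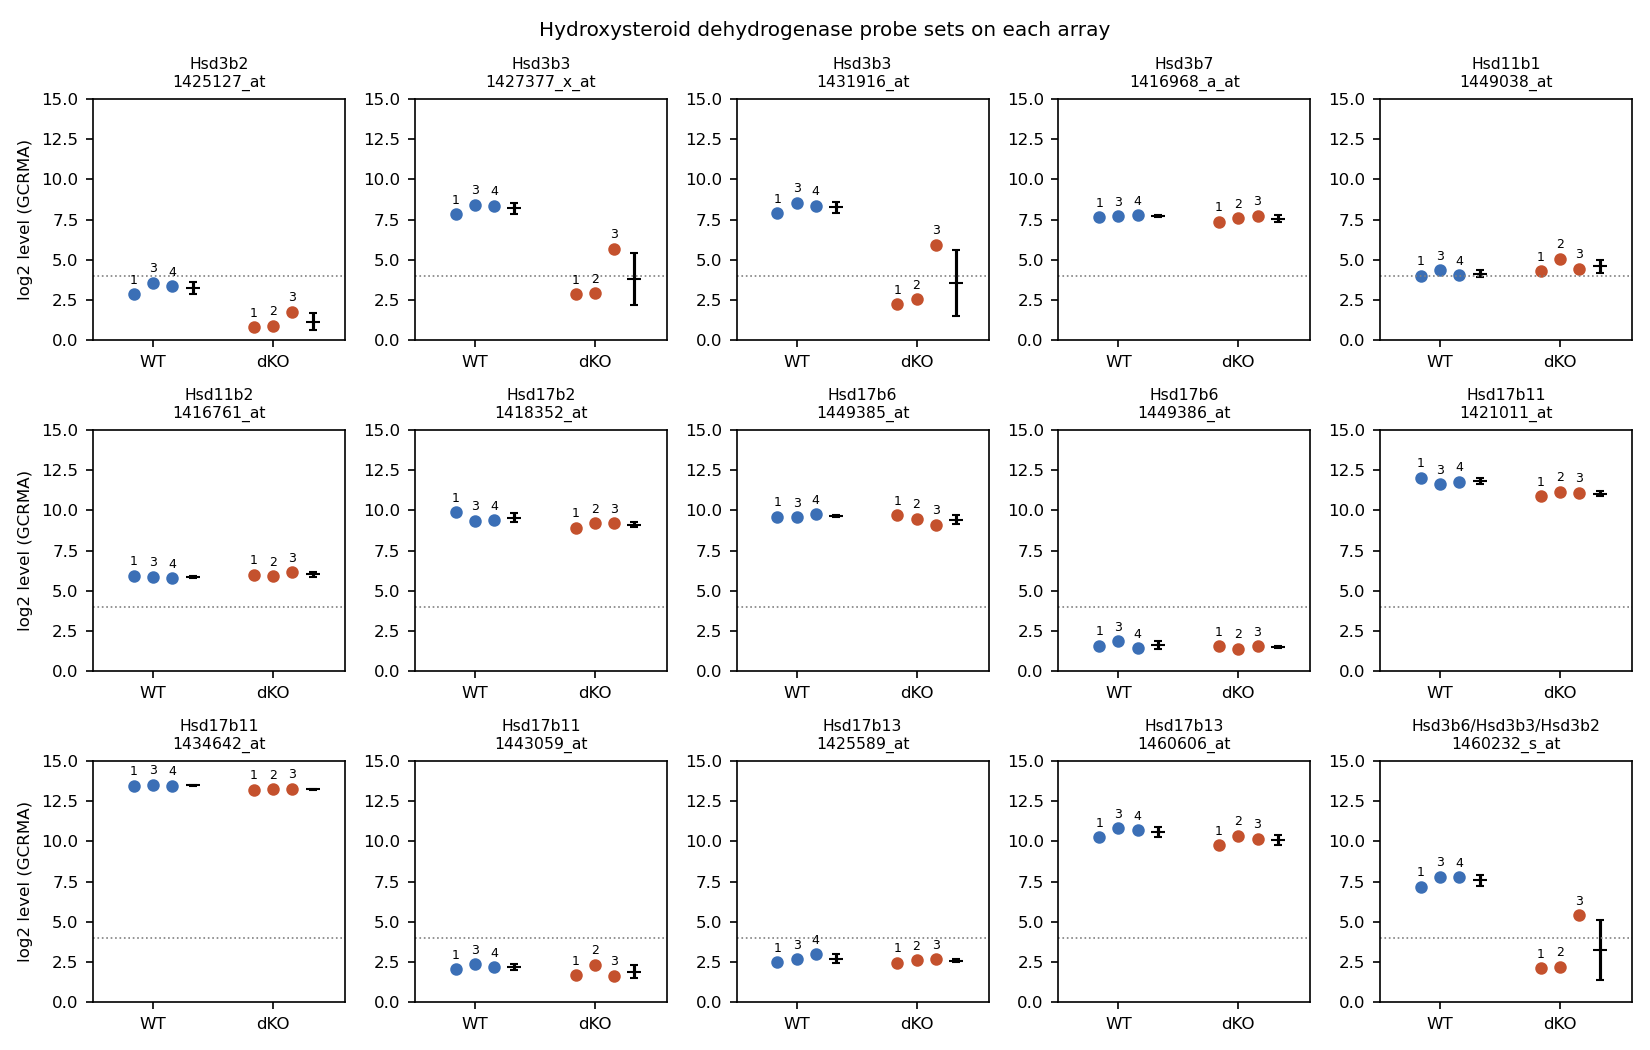
Log2 level (GCRMA) of each hydroxysteroid dehydrogenase probe set on each array, with the mouse number above each point, wild type (WT) in blue and double knockout (dKO) in orange, and the mean ± SD (n = 3) beside each group. The dotted line marks the filter at 4. Both Hsd3b3 probe sets fall from about 8 to below 3 in double knockout mice 1 and 2 and to between 5.69 and 5.95 in mouse 3. The probe set shared by Hsd3b6, Hsd3b3 and Hsd3b2 (1460232_s_at) falls with them. The other probe sets move by less than 1 or lie under the line.

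Hsd3b3 was read by a pair of probe sets. Levels on 1427377_x_at were 7.83, 8.42 and 8.38 in wild type mice 1, 3 and 4, and 2.88, 2.93 and 5.69 in double knockout mice 1, 2 and 3. The groups did not overlap, and double knockout mouse 3 lay far above its group mates but still below every wild type mouse. The log2 difference of the means was -4.38 ± 0.74 (SE), or 20.8-fold lower on the deposited values. As the levels of double knockout mice 1 and 2 were under 4, this size depends on the background model. With values under 4 raised to 4, the fall was 12.5-fold. On that scale double knockout mice 1 and 2 were at least 18.5-fold below the wild type mean and mouse 3 was 5.74-fold below it.

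The other probe set, 1431916_at, gave levels of 7.90, 8.56 and 8.37 in wild type mice and 2.23, 2.57 and 5.95 in double knockout mice. The order of the mice was the same, with double knockout mouse 3 again in between. The difference was -4.69 ± 0.94, and 12.4-fold with values under 4 raised to 4. Double knockout mice 1 and 2 were then at least 19.4-fold and mouse 3 was 5.01-fold below the wild type mean. Without double knockout mouse 3, the differences of the respective probe sets were -5.31 and -5.88.

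On the deposited values, the spread of Hsd3b3 within the double knockout group was among the largest on the arrays. The SD of 1427377_x_at was 1.61 in double knockout mice and 0.33 in wild type mice, and that of 1431916_at was 2.06 and 0.34. Only 24 and 8 of the 18013 probe sets tested, respectively, had a larger SD in the double knockout group, where the median SD was 0.145. Double knockout mice 1 and 2 were under 4 on both probe sets, so the size of this spread and its rank depend on the background model. In jejunum measured as a whole, fewer cells of a type and less RNA per cell cannot be told apart, for Hsd3b3 or for any other gene here.

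Close relatives of Hsd3b3 share sequence with it, and the array reflects this. Affymetrix gives the suffix _s_at to a probe set that matches several genes and _x_at to one in which some probes also match others, so signal cannot always be given to 1 gene. The probe set 1460232_s_at, annotated to Hsd3b6, Hsd3b3 and Hsd3b2 together, had levels of 7.17, 7.80 and 7.77 in wild type mice and 2.11, 2.21 and 5.41 in double knockout mice. It followed the Hsd3b3 probe sets mouse by mouse, with a difference of -4.34 ± 0.86, and because it also detects Hsd3b3 it is not a separate measurement. Levels on the other shared probe set, 1417554_at (Gm4450, Gm10681 and Hsd3b4), were all between 1.45 and 1.82, at the bottom of the scale in both groups.

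Hsd3b2, the neighbour of Hsd3b3 and a member of the same enzyme family, had levels of 2.86, 3.59 and 3.35 in wild type mice and 0.83, 0.91 and 1.78 in double knockout mice. All 6 values were under the filter, so no fold is given. The groups did not overlap, and the order of the mice matched that of Hsd3b3, with Pearson's r of 0.986 over the 6 arrays between 1425127_at and 1427377_x_at. This correlation follows the difference between the groups and is given as a description. Whether the probes for Hsd3b2 also pick up Hsd3b3 RNA was not tested. The single-gene probe sets of Hsd3b1 and Hsd3b5, further genes of the row, were between 1.22 and 1.78 on all arrays.

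Sequences before the start sites are shown for the 3 genes that share 1460232_s_at. These genes lie next to each other, and that probe set cannot tell them apart. Whether Hsd3b6 itself changed was not measured, as no probe set was annotated to it alone. The sequence of Hsd17b11 is shown because 1 of its probe sets was called. Each runs 5′ to 3′ and is the stretch of 250 bases that ends at the base before the annotated start, from RefSeq on GRCm38.p6. Capitals mark matches to the searched motifs on either strand.
Hsd3b3 (chr3:98763129-98763378, minus strand): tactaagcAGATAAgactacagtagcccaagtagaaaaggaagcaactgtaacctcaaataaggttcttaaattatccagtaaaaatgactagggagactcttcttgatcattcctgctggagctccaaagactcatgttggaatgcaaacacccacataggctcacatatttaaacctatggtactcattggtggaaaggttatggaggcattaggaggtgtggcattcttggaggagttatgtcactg
Hsd3b2 (chr3:98724544-98724793, minus strand): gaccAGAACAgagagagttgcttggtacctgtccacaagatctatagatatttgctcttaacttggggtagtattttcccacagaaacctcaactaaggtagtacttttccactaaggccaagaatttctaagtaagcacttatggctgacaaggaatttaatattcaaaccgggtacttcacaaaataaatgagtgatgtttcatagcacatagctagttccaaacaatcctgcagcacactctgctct
Hsd3b6 (chr3:98814444-98814693, minus strand): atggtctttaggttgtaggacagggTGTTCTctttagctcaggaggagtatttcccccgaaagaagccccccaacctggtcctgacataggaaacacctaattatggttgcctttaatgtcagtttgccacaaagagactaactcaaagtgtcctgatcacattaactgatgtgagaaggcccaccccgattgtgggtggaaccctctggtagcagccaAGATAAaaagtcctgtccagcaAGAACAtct
Hsd17b11 (chr5:104021797-104022046, minus strand): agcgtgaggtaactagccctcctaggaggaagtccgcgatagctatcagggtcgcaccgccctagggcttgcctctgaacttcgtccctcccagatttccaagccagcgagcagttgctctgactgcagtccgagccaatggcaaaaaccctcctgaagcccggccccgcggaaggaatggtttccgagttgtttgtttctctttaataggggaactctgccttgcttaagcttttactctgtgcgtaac

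The capitals in the Hsd3b3 sequence are AGATAA, the core of sites for GATA factors, at 242 to 237 bases before the start, and the same letters stand at 31 to 26 bases in Hsd3b6. AGAACA, which resembles a glucocorticoid receptor half-site, was found at 246 to 241 bases in Hsd3b2, and in Hsd3b6 at 9 to 4 bases and, on the other strand, at 225 to 220 bases. AGATAA is in 9.99% and AGAACA in 16.1% of the 32851 promoters of the same length in the table. The other motifs searched on both strands were AAGGTCA (4.08% of promoters), AGGTCA (14%, and contained in AAGGTCA), CAAAGTCCA (0.384%), TTTATG (10.8%) and TATAAA (12.4%). None of these letters, nor AGATAA or AGAACA, was found in the Hsd17b11 window, and a match is a description and not a site.

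RefSeq gives Hsd3b3 a second start 718 bases away, and the windows before the 2 starts were 98.8% identical, with AGATAA in both. Identity was counted over the whole alignment, gaps included, so windows that match at an offset score low. The 2 overlapping windows of Hsd3b4, for example, scored 44.9%. Between Hsd3b2, Hsd3b3 and Hsd3b6 the windows scored 42.5% to 46.5%. Windows of Hsd3b genes against those of Hsd11b1 and the Hsd17b genes scored 41.6% to 48.0%, a range that holds these values. The Hsd3b3 windows shared 151 and 153 identical positions with that of Hsd3b5, in alignments of 301 and 300 positions (50.2% and 51.0%). Promoters were found for 7 of the 9 genes, and those of Hsd11b2 and Hsd17b2 were not analysed here.

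Hsd3b7, the enzyme of bile acid synthesis, did not share the pattern of Hsd3b3. Its levels on 1416968_a_at were 7.65, 7.70 and 7.76 in wild type mice and 7.37, 7.59 and 7.76 in double knockout mice. The groups overlapped, and the difference of -0.13 ± 0.12 was not called (limma adjusted p = 0.492).

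Genes on either side of Hsd3b3 on its chromosome were read to see whether adjacent genes moved on the same arrays. Of the 12 nearest measured genes, 6 on each side, 1 was called higher and none was called lower by limma, while 5 had an unadjusted p under 0.05. The shares over all probe sets tested were 4.47% called and 27.1% with such a p. Hao2, a peroxisomal enzyme that oxidises hydroxy acids and the next measured gene on one side, had levels of 4.35, 4.47 and 4.68 in wild type mice and 1.77, 3.30 and 3.82 in double knockout mice. The groups did not overlap and all double knockout values were under 4. Hao2 passed the filter only through the wild type arrays, where it was higher, and groups that lie apart follow from this. The difference of -1.53 ± 0.49 was not called (limma adjusted p = 0.111), and with values under 4 raised to 4 Hao2 was at least 1.41-fold lower. Double knockout mouse 3 was again the highest of its group.

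Wdr3, a factor in ribosome assembly and the neighbour beyond Hao2, was the called gene, with levels of 7.22, 7.34 and 7.40 in wild type mice and 7.87, 7.76 and 7.92 in double knockout mice. It rose by 0.53 ± 0.09 (limma adjusted p = 0.0344), a call that was lost in each of the 6 fits without 1 mouse (adjusted p from 0.0517 to 0.115). Phgdh, the first enzyme of serine synthesis and the nearest measured gene on the other side, had a difference of 0.99 ± 0.22 (adjusted p = 0.0552) and no overlap between the groups. The other 9 neighbours (Reg4, Notch2, Sec22b, Pde4dip, Prkab2, Gdap2, Tent5c, Man1a2 and Ptgfrn) had differences between -0.38 and 0.51, and none was called. Among them, groups were also apart for Prkab2 (higher, limma adjusted p = 0.0564), Pde4dip (lower, 0.0609) and Man1a2 (lower, 0.198), and overlapped for the rest. Of all probe sets tested, 34.3% had groups apart in either direction.

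The genes whose 6 values were most like those of Hsd3b3 on 1427377_x_at were sought among 15875 probe sets annotated to 1 gene, by Pearson's r over the 6 arrays. The 6 highest were Aph1a (r = 0.997), Hadh (0.994), Hps5 (0.994), Myo6 (0.991), Fcgrt (0.990) and 0610005C13Rik (0.989), and 93 probe sets had an r above 0.95 while 65 had an r as strong in the negative direction. With 6 arrays in 2 groups, such values follow the difference between the groups and the place of double knockout mouse 3. Fcgrt, the receptor that carries immunoglobulin G across the gut wall, had levels of 9.72, 9.86 and 9.90 in wild type mice and 6.28, 6.83 and 8.62 in double knockout mice. For 0610005C13Rik the levels were 9.79, 9.75 and 9.94 against 7.68, 7.65 and 9.11. In both, double knockout mouse 3 stood between the other double knockout mice and the wild type.

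The sizes of these differences varied widely. Fcgrt differed by -2.58 ± 0.56, 0610005C13Rik by -1.68 ± 0.38 and Hps5, a component of lysosome-related organelle assembly, by -1.53 ± 0.28. The differences of Myo6, Hadh and Aph1a were -0.62, -0.22 and -0.11. In the gene table, Aph1a and Hadh lie on the chromosome of Hsd3b3, Myo6 lies on that of Ifrd2, and the other 3 share a chromosome with each other.

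**Figure D2:**
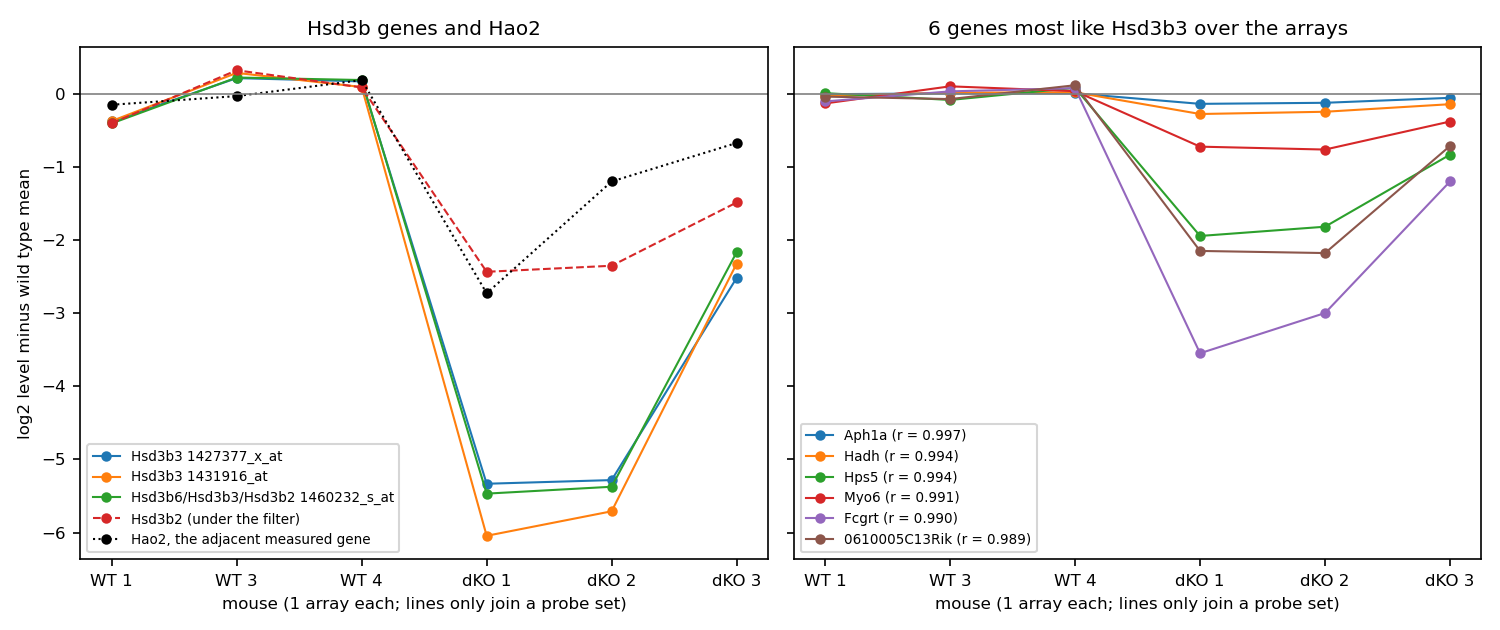
Log2 level of each mouse minus the wild type mean of the same probe set, for both Hsd3b3 probe sets, the shared 1460232_s_at, Hsd3b2 and Hao2 (left) and for the 6 genes most like Hsd3b3 (right); lines only join the points of a probe set. The genes on the right were picked for this pattern. Of the double knockout mice, mouse 3 lies nearest to the wild type mean in every line shown, for example at -2.52 for Hsd3b3 on 1427377_x_at, where double knockout mice 1 and 2 are at -5.33 and -5.28.

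Neither of the enzymes that set local glucocorticoid levels was called. Hsd11b1 had levels of 4.03, 4.38 and 4.04 in wild type mice and 4.29, 5.08 and 4.45 in double knockout mice. The groups overlapped close to the filter, and the difference of 0.46 ± 0.22 was not called (limma adjusted p = 0.230). All 7 measured fibroblast and matrix markers also had a positive difference, 0 were called by limma and 2 had an unadjusted p under 0.05. Over all probe sets tested, 46.4% had a negative difference, 4.47% were called and 27.1% had such a p. The mean level of the 7 markers overlapped between the groups. It ranged from 7.83 to 8.54 in wild type mice and from 8.49 to 8.85 in double knockout mice. The mean of the 2 measured adipocyte markers ranged from 5.63 to 7.59 and from 7.24 to 8.14. The part of these cells in the Hsd11b1 values was not tested.

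Hsd11b2 had levels of 5.94, 5.89 and 5.78 in wild type mice and 6.01, 5.90 and 6.15 in double knockout mice. The groups overlapped, and the difference of 0.15 ± 0.10 was not called (limma adjusted p = 0.378).

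Among the 7 measured genes other than Hsd3b3, Hsd17b11, a lipid droplet enzyme that oxidises androgen metabolites, was the only one with a called probe set. Levels on 1421011_at were 12.03, 11.64 and 11.77 in wild type mice and 10.89, 11.16 and 11.09 in double knockout mice. Every double knockout mouse was below every wild type mouse. Hsd17b11 fell by 0.77 ± 0.13 on this probe set, or 1.71-fold (limma adjusted p = 0.0327). The call was lost in each of the 6 fits that left out 1 mouse, in which the difference ranged from -0.86 to -0.66 and the adjusted p from 0.0537 to 0.115, and also with the covariate for RNA quality and with the mouse number as a block.

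The other probe sets of Hsd17b11 gave a smaller or no measurable difference. Levels on 1434642_at were 13.47, 13.53 and 13.47 in wild type mice and 13.22, 13.25 and 13.28 in double knockout mice. The groups did not overlap, but the difference of -0.24 ± 0.08 was not called (limma adjusted p = 0.111), although it passed with a trended, robust variance prior (adjusted p = 0.0156). Levels on 1443059_at were 2.05, 2.37 and 2.17 against 1.70, 2.35 and 1.66, under the filter. The 2 measurable probe sets thus had the same direction and different sizes. Levels on 1434642_at were also close to the top of the scale, as the highest values of the arrays lay between 14.13 and 14.22. Whether this made its difference smaller was not tested.

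Hsd17b13, the relative of Hsd17b11 best known as a lipid droplet protein of the liver, had levels on 1460606_at of 10.26, 10.82 and 10.69 in wild type mice and 9.77, 10.36 and 10.17 in double knockout mice. The groups overlapped, as double knockout mouse 2 was above wild type mouse 1. The difference of -0.49 ± 0.20 was not called (limma adjusted p = 0.177). Its other probe set, 1425589_at, stayed between 2.47 and 3.00 on all arrays, under the filter.

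Hsd17b2, which oxidises estradiol and testosterone to weaker forms and is typical of epithelia, had levels of 9.88, 9.36 and 9.41 in wild type mice and 8.92, 9.20 and 9.21 in double knockout mice. All double knockout values were below the wild type values, and the difference of -0.44 ± 0.16 was not called (limma adjusted p = 0.154). Hsd17b6, an oxidising enzyme related to retinol dehydrogenases, had levels on 1449385_at of 9.61, 9.59 and 9.75 in wild type mice and 9.69, 9.49 and 9.11 in double knockout mice. The groups overlapped, and the difference of -0.22 ± 0.15 was not called (adjusted p = 0.397). On 1449386_at all 6 values were between 1.41 and 1.87.

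Enterocyte markers gave little room to see a change, as 10 of the 11 measured had a mean level above 13 and the highest values of the arrays lay between 14.13 and 14.22. Of the 11, 10 had a negative difference and 0 were called by limma, 1 had an unadjusted p under 0.05, and their median difference was -0.06. Their mean level was 13.45 to 13.49 in wild type mice and 13.34 to 13.42 in double knockout mice. The 6 crypt markers all had positive differences with a median of 0.36, and 3 had an unadjusted p under 0.05. Of the 6, 1 was called (Top2a, a gene of dividing cells, 0.55 ± 0.10, limma adjusted p = 0.034). Over all probe sets tested, 46.4% had a negative difference, 4.47% were called and 27.1% had an unadjusted p under 0.05. The part of shifts in these markers in the values of the Hsd17b genes was not tested.

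**Figure D3:**
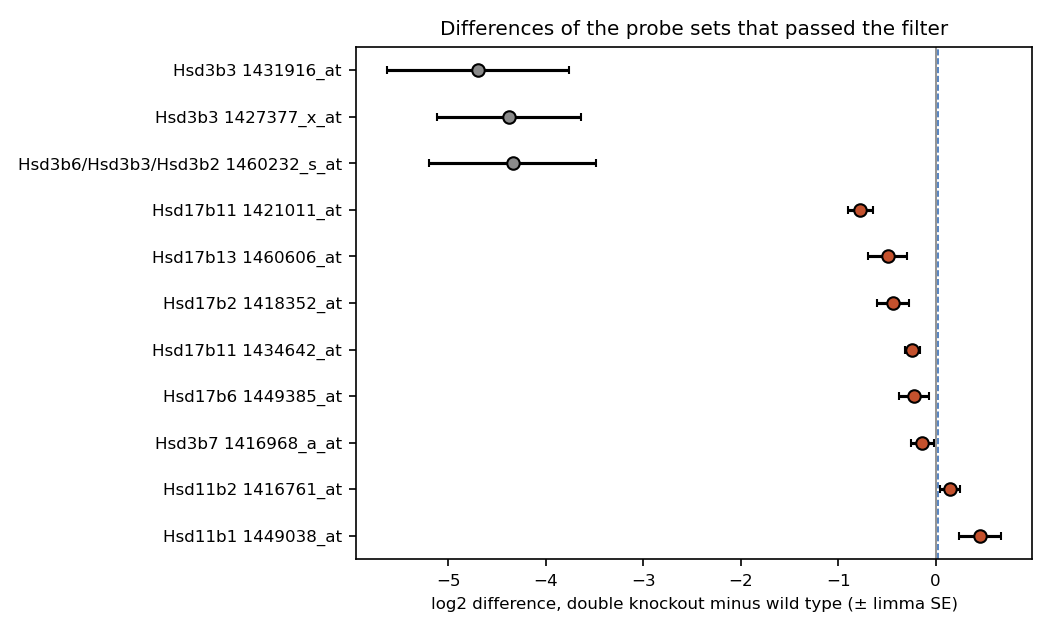
Log2 difference, double knockout minus wild type, with limma's SE (n = 3 mice per group) for the 10 probe sets that passed the filter and for the shared Hsd3b probe set. Grey points are the probe sets that detect Hsd3b3, given with no test. The dashed line is the median of all probe sets tested (0.025). Only the points for Hsd3b3 and the shared set lie beyond -4, and the others lie between -0.77 and 0.46.

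Genes of the steps before and after these enzymes were read from lists of the surrounding pathways, with 1 probe set per gene. In all, 3 of 78 measured genes were called, beside 4.47% of all probe sets tested. The counts of unadjusted p under 0.05 below stand beside 27.1%, and those of negative differences beside 46.4%. The list of other hydroxysteroid dehydrogenases does not hold the Akr1c genes, which were placed in other lists. Of this list, 9 genes were measured and 0 were called by limma, although 5 had an unadjusted p under 0.05, and the median of the 9 was 0.17. The smallest p was that of H2-Ke6 (also named Hsd17b8, an enzyme of mitochondrial fatty acid synthesis), at -0.34 ± 0.08 (adjusted p = 0.0618).

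Of the glucocorticoid synthesis genes, 5 were measured and 0 were called by limma, with 1 at an unadjusted p under 0.05 and a median of 0.02. Fdx1, which passes electrons to the mitochondrial steroid enzymes, had the smallest p (-0.21 ± 0.09, adjusted p = 0.183). Star, Cyp11a1, Cyp11b1, Cyp17a1, Cyp21a1 and Nr5a1, which define steroid-producing cells of the adrenal and gonad, were all under the filter. Of the 4 measured genes that supply NADPH, the cofactor of Hsd11b1, 0 were called and 0 had an unadjusted p under 0.05, and H6pd had the smallest p (0.52 ± 0.24, adjusted p = 0.209).

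Of the corticosteroid receptors and glucocorticoid targets, 14 were measured, 1 was called higher and the median was 0.08. Zbtb16, a transcription factor induced by glucocorticoids, had levels of 2.94, 3.58 and 3.26 in wild type mice and 4.12, 4.78 and 4.65 in double knockout mice. The groups did not overlap and all wild type values were under 4, so it was at least 1.43-fold higher (limma adjusted p = 0.0361). It passed the filter only through the double knockout arrays, and its p rests on wild type values close to background. The call held in 1 of the 6 fits without 1 mouse, that without double knockout mouse 1, and was lost with values under 4 raised to 4 (adjusted p = 0.116). Its probe set 1419874_x_at may also match other transcripts.

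Other targets were uneven between the double knockout mice, and the following were picked after their values were seen. Fkbp5, a chaperone partner of the glucocorticoid receptor, had levels of 7.10, 6.23 and 6.04 in wild type mice and 6.97, 7.87 and 9.09 in double knockout mice. The groups overlapped, and the difference of 1.52 ± 0.54 was not called (limma adjusted p = 0.139). Over the whole list the mean level was between 8.58 and 8.80 in wild type mice and was 8.54, 8.88 and 9.38 in double knockout mice 1, 2 and 3. Mouse 3 was also the highest double knockout mouse in the mean of the lists for NADPH supply (10.53), bile acid synthesis (8.94) and lipid droplet proteins (9.55). In the remaining pathway lists double knockout mouse 2 was the highest. These were other hydroxysteroid dehydrogenases (8.69), glucocorticoid synthesis (8.65), sex steroid reduction, sulfation and aromatization (9.35) and retinol and related short-chain dehydrogenases (9.68). Nr3c1, the glucocorticoid receptor, had a difference of -0.41 ± 0.10 (adjusted p = 0.0646).

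The list of sex steroid reduction, sulfation and aromatization had 7 measured genes, of which 1 was called lower and 6 had negative differences, with a median of -0.20. The called gene was Akr1c14, a reductase that inactivates progesterone and androgen metabolites. Its levels were 9.66, 9.58 and 9.85 in wild type mice and 7.91, 8.05 and 8.55 in double knockout mice. The groups were well apart, and Akr1c14 fell by 1.53 ± 0.18, or 2.88-fold (limma adjusted p = 0.0164). It passed in the 3 fits that left out a double knockout mouse and not in the 3 that left out a wild type mouse, with adjusted p-values between 0.0119 and 0.0774.

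Retinol and related short-chain dehydrogenases, the wider enzyme family of the 11β and 17β groups, had 14 measured genes, of which 12 had negative differences and 1 was called lower, with a median of -0.21. Rdh9, an enzyme of retinol and steroid oxidation, had levels of 10.31, 10.23 and 10.25 in wild type mice and 9.81, 9.82 and 9.67 in double knockout mice. It fell by 0.50 ± 0.08, or 1.41-fold (limma adjusted p = 0.0327), and passed in 0 of the 6 fits without 1 mouse (adjusted p from 0.0546 to 0.118). The probe set, 1427963_s_at, may match transcripts of other genes.

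Of the 7 measured bile acid synthesis genes, which work beside Hsd3b7, 0 were called by limma and 2 had an unadjusted p under 0.05, with a median of -0.16. Scp2, a sterol carrier and peroxisomal thiolase, had the smallest p (-0.34 ± 0.08, adjusted p = 0.0602). Of 18 lipid droplet proteins, which share the droplet with Hsd17b11 and Hsd17b13, 0 were called and 3 had an unadjusted p under 0.05, with 9 differences in each direction. Fitm2, which helps droplets form, had the smallest p (0.49 ± 0.13, adjusted p = 0.0780).

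**Figure D4:**
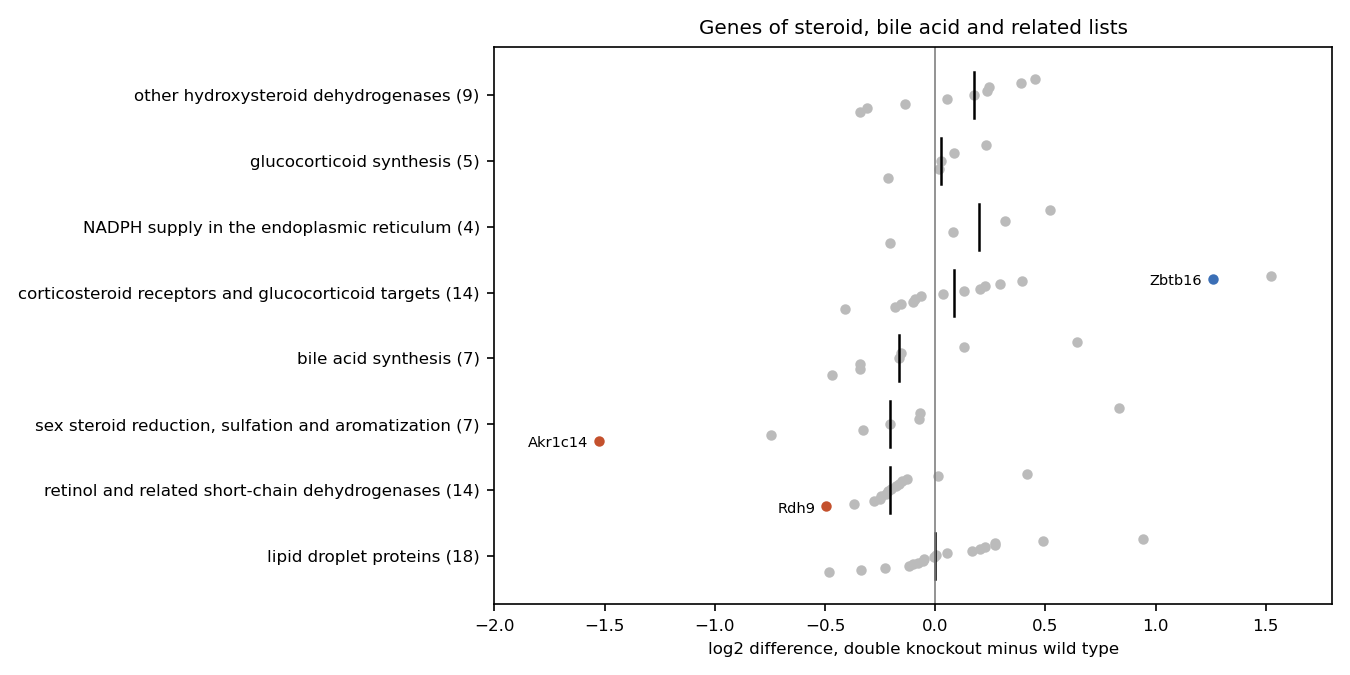
Log2 difference, double knockout minus wild type, of each measured gene of the surrounding pathway lists, with the number measured in brackets and a black bar at each list's median. Coloured points are the 3 genes called by limma, Zbtb16 higher and Akr1c14 and Rdh9 lower; the list medians lie between -0.21 and 0.20.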

How the data were processed

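The authors deposited log2 expression values, 1 per probe set and array, and the submitters' processing notes name GCRMA 2.18.0 for them, with settings not given in the sources used here. This method removes background modelled on probe sequence before joint normalization, so low levels and folds from them depend on its model. Per the labels' protocols, 500 ng of RNA per mouse, from TRIzol and column extraction, was labelled. Of 45101 probe sets, 34958 had 1 gene symbol in the platform annotation, 932 several and 9211 none. After removal of 64 control probe sets, 18013 lay above 4 on at least 3 of 6 arrays. The test was that of limma 3.58.1 (R 4.3.3; eBayes with no trend or covariate), two-sided, with Benjamini-Hochberg adjustment over all 18013, and the code was tested on simulated data. Within-group arrays were no copies: at least 62.5% of probe sets differed by over 0.1. The genes and lists were chosen with earlier results of these data known. Of 242 symbols listed for pathways and markers, 218 matched a probe set and 151 passed the filter; each used its brightest probe set. Named were all family members, up to 3 called genes per pathway list (otherwise the smallest p), the measured neighbours and the 6 genes most like Hsd3b3. Gene order came from the GRCm38.p6 gene table, and no coordinates of it are printed as the array files name no build. Alternatives covered the filter, array weights, normalization, variance prior, RNA quality, raising values under 4 to 4, the mouse number as a block and leaving out each mouse. Figures were drawn with matplotlib 3.10.9.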

Additional observations from a re-analysis of the deposited data

How the results depend on the processing

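Hsd3b3 on 1427377_x_at stayed lower in every alternative, with differences from -5.31 to -3.90 without 1 mouse and from -5.19 to -3.65 otherwise. The shared Hsd3b probe set ranged from -5.42 to -3.77 and from -5.25 to -3.11. The family was chosen by the fall of Hsd3b3 on these same arrays, so these ranges are a description and no test of it. Counts depended on the setting, and the cause was not tested. The 805 probe sets called became 17 with the RNA quality covariate, 13 with the replicate block, 472 without the filter and 1730 with a trended, robust prior, and 32 to 435 without 1 mouse. Of the family outside Hsd3b3, 1 probe set passed in the main fit, 1421011_at of Hsd17b11. It passed neither with the covariate nor with the block, and in none of the fits without 1 mouse. Without the filter, Hsd3b2 on 1425127_at was also called (limma adjusted p = 0.0257), from values all under 4. With the trended prior, 1434642_at of Hsd17b11 also passed. Pathway genes called were 3, against 0 with the covariate (10 at an unadjusted p under 0.05), 0 with the block (15), 8 with the trended prior and 0 to 2 without 1 mouse. Neighbours called were 1, against 0 with the covariate (6), 0 with the block (5), 0 without the filter (5) and in each fit without 1 mouse (0 to 0), 2 with values under 4 raised to 4, 3 with the trended prior and 4 with the stricter filter. Notch2 turned negative with quantile normalization (-0.013), with the block (-0.20) and without 1 mouse (-0.13 to 0.23), and Reg4 with the block (-0.21). The labels do not say whether mice with the same number in both groups are linked. Their deviations correlated at 0.02 for number 1 and 0.30 for number 3. Hsd11b1 has no value under the stricter filter. All levels under 4, including Hsd3b2 and the double knockout values of Hao2, are bounds set by the background model.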
